A study of Mus musculus with 72 samples.

Results

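The mitochondrial ribosomal proteins (gene symbols beginning Mrpl for the large and Mrps for the small subunit) were followed across liver, kidney, heart and brain of SAMP1 mice fed coenzyme Q10. Members were all probe sets of the expression table whose single platform gene symbol began with Mrpl or Mrps and a digit, which gave 156 of 45037 probe sets that are not array controls. They stood for 76 genes, by symbol 47 of the large and 29 of the small subunit, and 42 genes had more than 1 probe set. A filter on low signal left 140 members to test in liver, 138 for kidney, 139 for heart and 136 for brain, and every one of the 76 genes kept at least 1 probe set in each tissue. Of the 156, 129 passed in all 4 tissues, 17 in 1 to 3 tissues, and 10 in none.

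SAMP1 (senescence accelerated mouse prone 1) is an inbred strain selected for early signs of ageing, and every mouse was a female of this strain, so no group had an ordinary ageing background. The mice were bought at 4 weeks of age, caged 3 to 6 together, and given either a control diet, oxidised coenzyme Q10 (Q10, a quinone) or reduced coenzyme Q10 (QH2, its hydroquinone) at 500 mg per kg body weight per day, estimated from mean food intake. Diets lasted 6 or 14 months, after which the mice were 7 or 15 months old. With 4 tissues, 3 diets and 2 durations there were 24 groups of 3 arrays, 72 arrays in all, and the labels do not say whether arrays of different tissues came from the same mouse. Coenzyme Q carries electrons in the mitochondrial inner membrane from complexes I and II to complex III, and the study asked how the 2 redox forms of the molecule affect gene expression.

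The mitochondrial ribosome is a separate translation machine inside the mitochondrion. It makes the few respiratory chain and ATP synthase subunits that mitochondrial DNA still encodes, while all of its own proteins are encoded in the nucleus, made in the cytosol and imported. Some of its proteins descend from bacterial ribosomal proteins and others were added during mitochondrial evolution; by their numbers, 43 of the 76 genes here were of the bacterial kind and 33 were specific to mitochondria. NRF1 and the ETS factor GABP (NRF2) are the best known transcriptional regulators of nuclear genes for mitochondrial proteins.

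RefSeq start site windows (GRCm38.p6, 250 bases before to 50 bases after each start) were available for 73 promoters of 67 of the 76 genes. The NRF1 motif, searched on both strands as GCGC followed by any base and then TGCGC, was present in 12 of the 73 promoters (16.4%), against 4.6% of 32851 windows of all genes and 6.38% of 21263 windows of protein-coding genes. The ETS motif CCGGAAGT, also searched on both strands, was present in 12 promoters (16.4%), against 3.89% of all and 5.15% of protein-coding windows. Either motif was found in 23 promoters (31.5%, against 11% of protein-coding windows), and both were found in that of Mrps26 alone. A match is a string of letters and was not tested for binding. The stretches below run from 130 bases before to 30 bases after the start, all on the plus strand, with motif matches in capitals. They are shown because Mrpl12 and Mrpl51 moved with tissue and duration, Mrpl3 moved against the family in brain, Mrpl45 held the NRF1 motif 3 times and Mrps26 held both motifs (overlapping NRF1 matches at its start).
Mrpl12, chr11:120484507-120484666: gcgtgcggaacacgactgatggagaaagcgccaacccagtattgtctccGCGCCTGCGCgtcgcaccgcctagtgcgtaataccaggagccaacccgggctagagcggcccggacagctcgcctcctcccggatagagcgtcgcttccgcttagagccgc
Mrpl45, chr11:97315586-97315745: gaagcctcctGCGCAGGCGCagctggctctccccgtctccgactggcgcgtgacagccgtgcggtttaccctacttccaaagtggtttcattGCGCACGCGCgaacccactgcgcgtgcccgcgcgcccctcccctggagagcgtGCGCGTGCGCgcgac
Mrpl51, chr6:125192070-125192229: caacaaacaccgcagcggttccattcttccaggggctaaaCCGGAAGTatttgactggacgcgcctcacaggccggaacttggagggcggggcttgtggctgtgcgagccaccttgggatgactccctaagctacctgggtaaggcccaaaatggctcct
Mrpl3, chr9:105053138-105053297: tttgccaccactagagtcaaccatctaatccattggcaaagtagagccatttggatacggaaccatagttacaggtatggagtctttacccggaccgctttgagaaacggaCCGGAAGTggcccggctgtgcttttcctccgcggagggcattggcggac
Mrps26, chr2:130563627-130563786: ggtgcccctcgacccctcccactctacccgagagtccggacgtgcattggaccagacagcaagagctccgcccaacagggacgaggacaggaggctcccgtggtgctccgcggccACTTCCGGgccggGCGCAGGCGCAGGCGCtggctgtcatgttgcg

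The arrays differed in brightness and in RNA quality. Before normalisation, liver arrays had mean signals of 84.59 to 171.9 and arrays of the other 3 tissues 107.8 to 278.7, and the 3' to 5' signal ratio of the beta-actin control, which rises as RNA is degraded, spanned 1.59 to 7.36 in liver and 1.64 to 3.37 elsewhere. Arrays of the same group correlated at 0.89 to 0.98. All signals below are quantile normalised, so a difference is relative to the other probe sets of the array; log2 differences are given with their standard error (SE). A call means an adjusted p under 0.05 in limma after Benjamini-Hochberg adjustment over all probe sets tested. In whole tissue, fewer cells of a type and less RNA per cell cannot be told apart.

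Tissue set the level of these genes far more than diet or duration. With each gene represented by its brightest probe set, all 76 genes were higher in heart than in the mean of the other 3 tissues, by a median of 0.85 on the log2 scale (1.8-fold), and 75 of 76 were lower in brain, by a median log2 difference of -1.04 (2.06-fold). Over all member probe sets, limma called 121 of 135 higher and 8 lower in heart, where 83.4% of all 27022 probe sets tested were called (41.2% higher and 42.2% lower), and 9 higher and 116 lower in brain, where 87.4% were called (39.9% higher and 47.5% lower). The median member differed by 0.81 in heart, where the median of all probe sets was -0.01, and by -0.94 in brain, where it was -0.12. On the deposited signals, which leave brain arrays brighter, 44 members were called higher and 60 lower in brain, but members lay 1.03 below the median of all probe sets there and 0.89 above it in heart. The largest member signal of the 4 tissues was in heart for 103 of 135 members, against 27.4% of all probe sets, and the smallest was in brain for 98, against 36.2%.

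**Figure D1:**
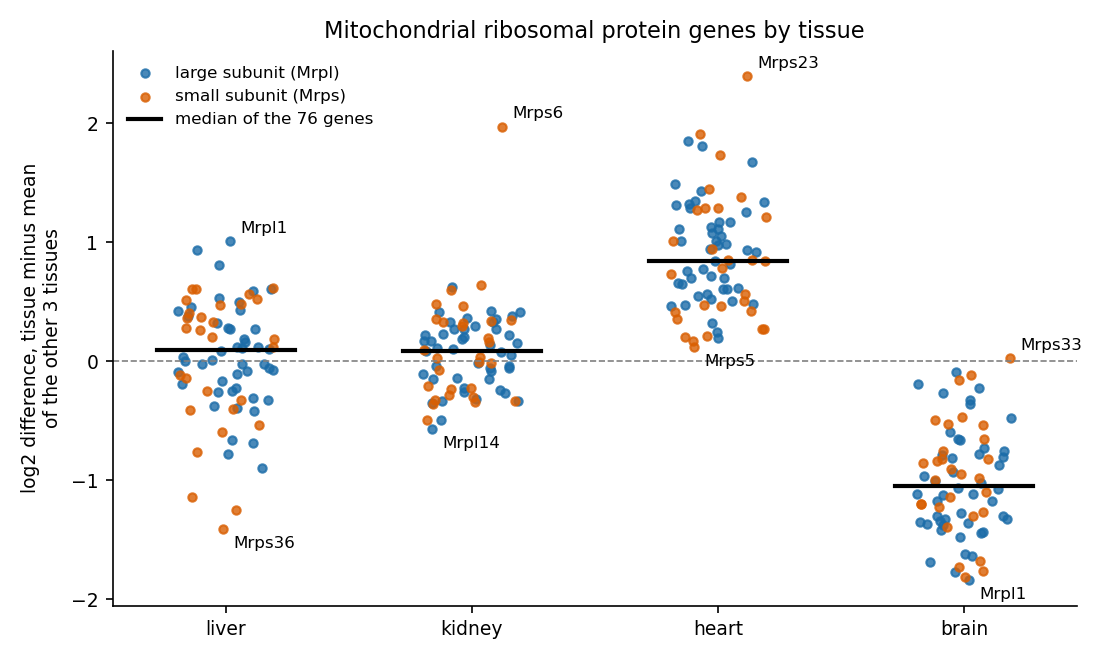
Log2 difference of each of the 76 genes (brightest probe set, normalised signal) between a tissue and the mean of the other 3, from 18 arrays per tissue, with large subunit genes in blue, small subunit genes in orange and a black line at the median. All 76 heart points lie above 0 and 75 of 76 brain points below it, while liver and kidney points lie on both sides; on the deposited signals fewer brain and more liver members were lower.

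Heart was highest for both subunits alike. Genes of the large subunit were higher by a median log2 difference of 0.94 and those of the small subunit by 0.79, and genes numbered as in bacteria (0.82) and those found in mitochondria only (0.85) hardly differed. Other genes of mitochondrial translation stood on the same side in heart: 17 of 18 mitochondrial aminoacyl-tRNA synthetase genes, 10 of 14 translation factor genes and 21 of 23 ribosome assembly genes were called higher, with median log2 differences of 0.80, 1.07 and 0.68. Complex I subunit genes, whose products work beside the mitochondrially made subunits, were higher in heart in 34 of 34 cases with a median of 1.23. Genes of cytosolic ribosomal proteins, the counterpart of the family outside mitochondria, had a median log2 difference of -0.12 in heart.

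Mrps23, a small subunit protein, had the largest heart difference. Its signal ran from 452.9 to 875.9 (median 706.6) on the 18 heart arrays, against medians of 111.1 in liver, 178.8 in kidney and 128.6 in brain, and the highest array outside heart read 220.9. The heart arrays therefore did not overlap any other tissue, and the log2 difference was 2.40; a second probe set gave 2.30 ± 0.05. Mrps23 overlaps another gene, Cuedc1, in the RefSeq annotation. Mrps36, formerly placed in the small subunit and now assigned to the 2-oxoglutarate dehydrogenase complex (Kgd4), ran from 828.8 to 1103 in heart (median 1003.8) and had medians of 168.6 in liver, 493.1 in kidney and 223.4 in brain. Its log2 difference was 1.91 ± 0.04 in heart and -1.41 ± 0.04 in liver, the lowest of the 76 genes in that tissue. Mrpl42 was as clear, with 2655.5 to 3829.9 in heart against medians of 868.3, 1515.6 and 596.2 in liver, kidney and brain (heart 1.85 ± 0.03, limma adjusted p = 4.51e-48).

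**Figure D2:**
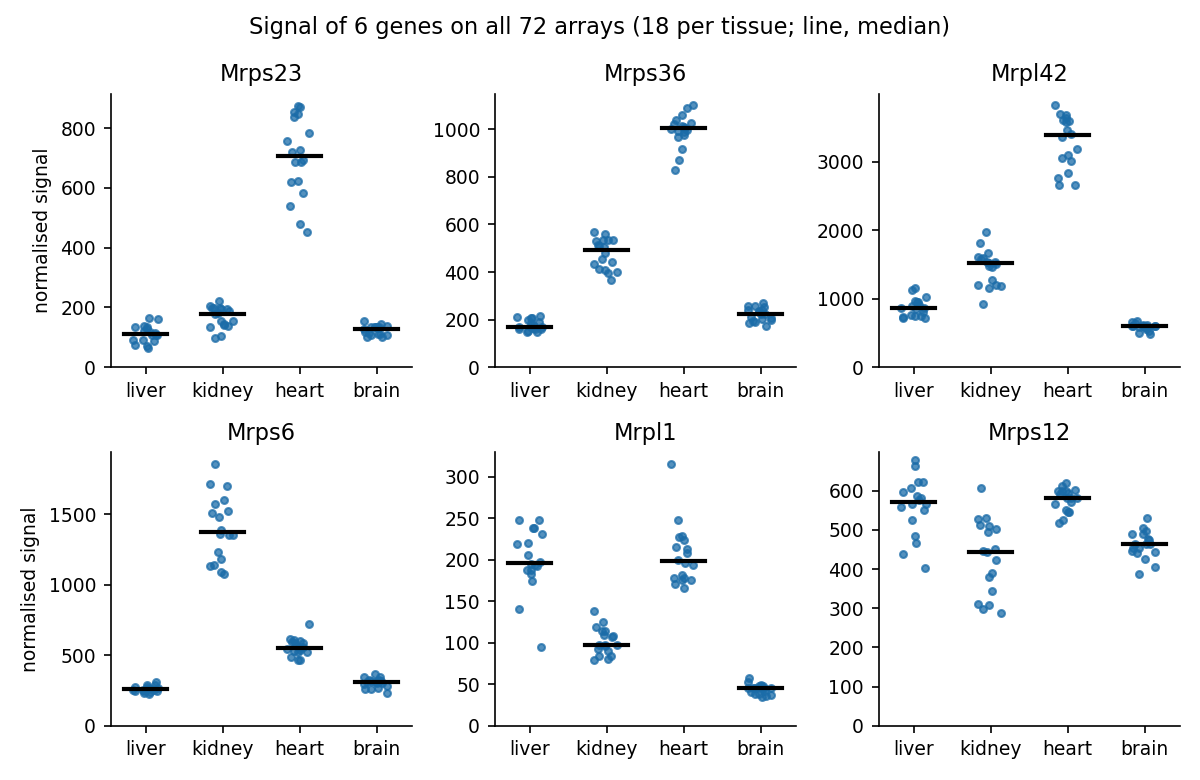
Normalised signal of 6 genes on all 72 arrays, 1 point per array (18 per tissue), with a line at the median of each tissue and axes starting at 0; each panel has its own scale. Mrps23, Mrps36 and Mrpl42 are highest in heart without overlap, Mrps6 is highest in kidney, Mrpl1 is lowest in brain, and the tissues overlap for Mrps12.

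At the low end were Mrps5, a small subunit protein studied in work on lifespan (0.12 ± 0.05), and Mrps12, a protein of the decoding centre (0.28 ± 0.03). Mrps12 had medians of 582.1 in heart, 571.5 in liver, 463.5 in brain and 444.3 in kidney, so neighbouring tissues overlapped. Mrpl12, the stalk protein that recruits translation factors, had medians of 1602.2 in kidney, 1568.7 in heart, 1254.3 in liver and 462.8 in brain, so that brain alone stood apart (brain -1.62 ± 0.03). Mrpl3 was 637.5 in heart against 203.8 in liver, 283.4 in kidney and 302.2 in brain, lowest in liver (-0.89 ± 0.04) rather than in brain.

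By brightest probe set the brain deficit was deepest for Mrpl1, which forms the mobile L1 stalk near the exit site of the ribosome. Its medians were 198.2 in heart, 196.1 in liver, 97.3 in kidney and 44.9 in brain (-1.84 ± 0.05). A second Mrpl1 probe set, 1423351_at, was also lowest in brain but differed less. Its mean log2 signals were 6.04 in brain, 6.41 in heart, 6.58 in kidney and 6.76 in liver. Mrps16 followed with 205.7 in brain against 598.1, 647.4 and 1038.4 in liver, kidney and heart (-1.81 ± 0.04), and Mrpl51 with 435.3 against 1098.6, 1309.6 and 2108.7 (-1.77 ± 0.04). Each of these genes had its lowest median in brain. Mrps33 was the exception among the brightest probe sets: its brain median of 567.6 lay between 468.7 in kidney and 876.1 in heart, and its log2 difference of 0.03 did not pass.

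Liver and kidney split the family. In liver 69 members were higher and 50 lower (84.7% of all probe sets called, 38.7% higher and 46% lower), and in kidney 51 were higher and 47 lower (75.6%, 38% higher and 37.6% lower); on the deposited signals, dimmer in liver, the liver counts were 4 and 114 and the kidney counts 64 and 18. Relative to the median of all probe sets, members were 0.19 higher in liver and 0.02 higher in kidney after normalisation, and 0.29 higher and -0.01 on the deposited signals. In liver Mrpl52 was high (1.07 ± 0.04) with a median of 473.6, against 293 in kidney, 300.2 in heart and 136.5 in brain, and Mrpl1 was high as well (1.01 ± 0.05). The complex I genes did not share the liver pattern of the ribosomal proteins: 33 of 34 were lower in liver, with a median log2 difference of -0.69.

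Mrps6 was the kidney's exception. Its signal was 1074.3 to 1860.5 in kidney (median 1374.8) against 463.4 to 720.4 in heart and medians of 256.8 in liver and 310.1 in brain, a kidney difference of 1.97 ± 0.04 (limma adjusted p = 8.4e-43), and a second probe set was also highest in kidney. No kidney array overlapped another tissue. In the RefSeq annotation Mrps6 overlaps Slc5a3, the sodium and myo-inositol cotransporter with which kidney cells take up osmolytes. One Slc5a3 probe set had a median of 1719.2 in kidney against 110.5 in liver, 74.6 in heart and 471.4 in brain (3.38 ± 0.09), and 3 of 3 Slc5a3 probe sets were higher in kidney. Whether Slc5a3 RNA contributes to the Mrps6 signal was not tested.

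Probe sets of the same gene did not always point the same way. In heart and in brain 7 genes each had probe sets called in both directions, in liver 13 and in kidney 10. The 8 members called lower in heart had mean signals of 19.9 to 73.8, against a median of 307.5 over the 135 members, and the 9 called higher in brain had 16.7 to 78.4, so these exceptions were all dim. Mrpl15, for example, was lower in heart by -1.68 ± 0.09 with probe set 1430798_x_at although its bright probe set 1435232_x_at had a heart median of 1375.9, the highest of the 4 tissues. Mrpl35 was higher in brain (1.22 ± 0.10) and heart (1.92 ± 0.10) with 1440989_at, while its brightest probe set was lower in brain.

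Between 6 and 14 months of feeding the family moved in opposite directions in brain and in kidney. Averaged over the 3 diets, 67 of 136 members were higher and 7 lower at 14 months in brain (56.2% of all probe sets called, 28.5% higher and 27.7% lower), whereas 9 of 138 were higher and 62 lower in kidney (40.9%, 19.8% higher and 21.1% lower). In liver 7 of 140 were higher and 32 lower (20.8%, 11.2% higher and 9.53% lower), and in heart 12 of 139 were higher and 20 lower (18.8%, 9.46% higher and 9.39% lower). The median member differed by 0.16 in brain, where the median of all probe sets was 0.01; by -0.18 in kidney against -0.03; by -0.16 in liver against -0.02; and by -0.04 in heart against 0.03. The median SE of a member was 0.06 in brain. In liver the diets did not move alike. The median deviation of the members from the liver mean, averaged over the 3 arrays of a group, went from 0.09 to -0.04 on control. It went from 0.09 to -0.31 on Q10 and rose from 0.07 to 0.15 on QH2.

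Arrays of the 14-month mice were brighter before normalisation in heart (148.7 to 278.7, against 107.8 to 137.7 at 6 months) and by smaller amounts in kidney and brain. On the deposited signals the counts of members higher and lower were 121 and 0 in brain, 25 and 1 in kidney, 6 and 0 in liver, and 122 and 0 in heart, so in kidney, liver and heart the direction itself depended on normalisation. Measured against the median of all probe sets, members lay higher in brain with normalised (0.15) and deposited signals (0.21), lower in kidney with both (-0.15 and -0.20), lower in liver with both (-0.15 and -0.19) and close to it in heart (-0.06 and -0.04). Age, duration and any difference in when arrays were run cannot be told apart here, since each duration was a separate kill.

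The difference between tissues was tested directly in a fit over all 72 arrays. The change with duration was higher in brain than in kidney for 84 of 135 members and lower for 2 (32.4% of all probe sets called, 19% higher), and the count was 35 and 4 on the deposited signals. Brain exceeded liver for 77 members and fell short for 5 (34.2%, 20.3% higher), or 67 and 2 on the deposited signals. Brain exceeded heart for 42 and fell short for 1 (18.4%, 11.3% higher), but on the deposited signals each count was 1. With the arrays of 1 replicate number left out in all groups, the total of 86 called between brain and kidney became 55 without number 3, and the 43 called between brain and heart became 23 without number 2 and 19 without number 3. With arrays of the same diet, duration and number as a random block across tissues, the totals for kidney, liver and heart were 87, 83 and 43.

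**Figure D3:**
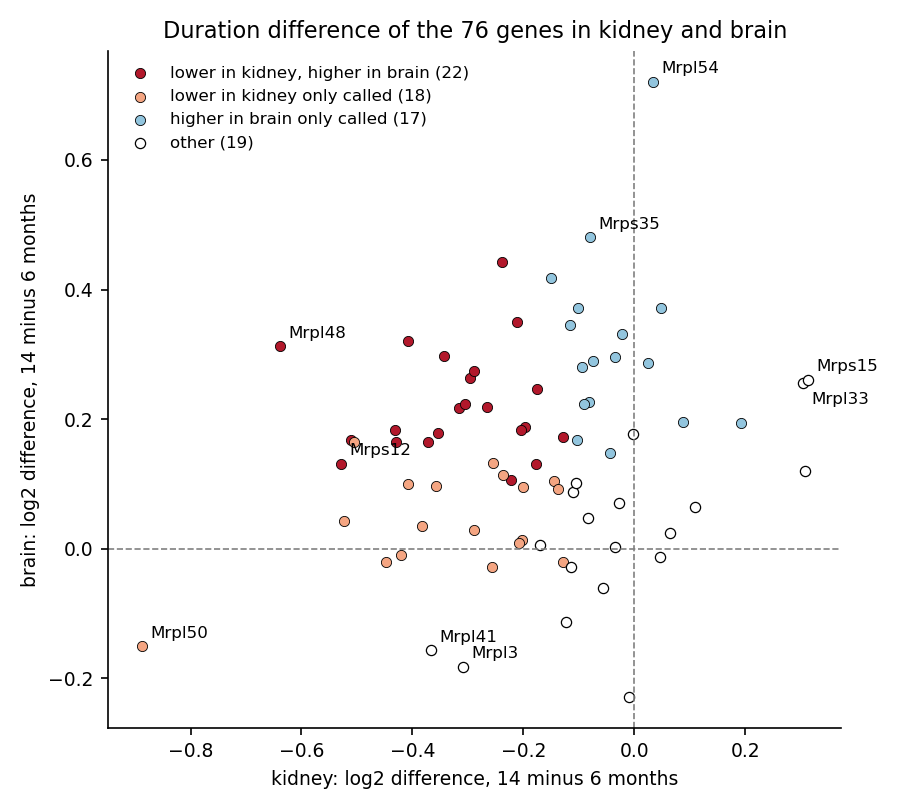
Log2 difference between 14 and 6 months of feeding (mean of 3 diets, 9 arrays against 9, normalised signal) of each of the 76 genes, kidney on the horizontal and brain on the vertical axis. Each gene is shown by its brightest probe set in each tissue, which differs between kidney and brain for Mrpl1, Mrpl9 and Mrpl15. Fill shows which were called. In the upper left, 22 genes were called lower in kidney and higher in brain, 18 were called lower in kidney alone and 17 higher in brain alone, and white points hold the rest, among them 2 lower in both (Mrpl3 and Mrpl41) and 2 higher in both (Mrpl33 and Mrps15); on the deposited signals most kidney members were not lower.

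By gene, using the brightest probe set in each tissue, 41 were higher in brain at 14 months and 3 lower (Mrpl3, Mrpl37 and Mrpl41). In kidney 3 were higher and 42 lower, with another probe set than in brain for Mrpl1, Mrpl9 and Mrpl15. The lists shared 22 genes, which were 52.4% of those lower in kidney and 53.7% of those higher in brain. Of all 76 genes 53.9% were higher in brain and 55.3% lower in kidney, so genes of one list were no more often on the other than the family as a whole. Of the 21 genes lower in liver, 20 were also lower in kidney (95.2% of the liver list, against 55.3% of all 76 genes, and 47.6% of the kidney list). In liver, kidney and heart together 7 genes were lower, namely Mrpl13, Mrpl42, Mrpl48, Mrpl50, Mrpl55, Mrps22 and Mrps31, and 4 of them (Mrpl13, Mrpl48, Mrps22 and Mrps31) were higher in brain. Mrps15 was the 1 gene higher in all 4 tissues (log2 differences of 0.38, 0.31, 0.20 and 0.26 for liver, kidney, heart and brain), though its second probe set passed in brain alone, and 10 genes were called in none. Both subunits, taken by symbol, took part: in brain 23 of 47 large and 18 of 29 small subunit genes were higher, and in kidney 24 large and 18 small subunit genes were lower. The 18 in each tissue include Mrps18a and Mrps36, which are now assigned elsewhere.

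In brain Mrpl54, a late addition to the large subunit found in mitochondria and not in bacteria, moved most. Its signal was 72 to 110.2 on the 9 arrays of 6 months (median 89.8) and 133 to 153.9 on those of 14 months (median 147.6), with no overlap, a log2 difference of 0.72 ± 0.08 (limma adjusted p = 1.99e-07). Mrpl13, a large subunit protein of bacterial origin, went from 149.9 to 214.4 (median 194.1) to 220.2 to 287 (median 273.3). The groups again did not overlap (0.48 ± 0.07). Its other 2 probe sets were higher too, but the brightest of the gene by only 0.18 ± 0.05 (limma adjusted p = 0.00485). Mrps24 went from a median of 218.5 to 303 (0.48 ± 0.07) and Mrpl15 from 308.3 to 432.1 (0.53 ± 0.08), and neither gene's groups overlapped in the probe set with the smallest p. The brightest probe set of Mrps24 was higher by 0.30. That of Mrpl15 in brain, 1434971_x_at, differed by 0.10 and did not pass (limma adjusted p = 0.225). Mrpl51 had overlapping groups, 470.3 to 612 and 582.7 to 725, with a difference of 0.33 ± 0.05.

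Among the genes followed in every tissue, Mrpl12 (0.32), Mrps36 (0.27) and Mrps12 (0.13) were higher in brain at 14 months, and Mrpl3 was lower (-0.18, limma adjusted p = 0.00404). Mrps5 gave no single answer: its brightest probe set differed by -0.11 and did not pass (adjusted p = 0.287), while a dim one was higher by 0.52 ± 0.11. Probe sets of Mrps9 and Mrps2 were called in both directions in brain.

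In kidney Mrpl50, a large subunit protein specific to mitochondria, had the largest fall. It read 443 to 649.2 at 6 months (median 515) and 166.1 to 364.7 at 14 months (median 315.1), with no overlap and a log2 difference of -0.89 ± 0.08 (limma adjusted p = 7.24e-07). It remained called on the deposited signals, at -0.54. Its second probe set, 1451266_at, did not pass in kidney (-0.11, adjusted p = 0.224) and was higher at 14 months in heart (0.27) and in brain (0.37). Mrpl49 fell from a median of 198.2 to 137.3 (-0.60 ± 0.07), Mrps11, the platform protein of the small subunit, from 477.4 to 341.4 (-0.52 ± 0.07), Mrpl40 from 376.7 to 290.8 (-0.43 ± 0.06) and Mrps31 from 332 to 250.7 (-0.43 ± 0.06), each without overlap. With Mrpl3 (-0.65 ± 0.09 in probe set 1422463_a_at), these 5 kept their sign on the deposited signals but no longer passed. The brightest probe sets of Mrpl49 (-0.255) and Mrpl3 (-0.308) were called lower in kidney too, by smaller amounts. Mrpl12 (-0.41), Mrps12 (-0.53) and Mrps36 (-0.29) were lower in kidney too, and Mrps5 (-0.12, adjusted p = 0.22) did not pass.

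Liver and heart showed smaller counts with some of the same names. In liver Mrpl34 fell from 181.1 to 243.3 (median 203.4) to 127.2 to 174.9 (median 149.8), a log2 difference of -0.48 ± 0.08 (limma adjusted p = 0.000644), and Mrps31 from a median of 311 to 250.1 (-0.45 ± 0.09); neither passed on the deposited signals. Mrpl12 (-0.24, adjusted p = 0.0505) and Mrps12 (-0.21, adjusted p = 0.0797) did not pass in liver. In heart Mrpl48 was 732.7 to 956.8 at 6 months and 458 to 716.7 at 14 months (-0.61 ± 0.06, limma adjusted p = 2.59e-06), without overlap, but on the deposited signals its difference was 0.20. Mrps30, assigned to the large subunit in structures in spite of its name, behaved in the same way (-0.33 ± 0.07, and 0.52 on the deposited signals). Mrpl33 (median 228.4 to 367.4, 0.66 ± 0.12) and Mrpl54 (178.5 to 240.9, 0.49 ± 0.09) were higher in heart on either scale. Mrpl9 disagreed with itself: 1437749_s_at was higher at 14 months in all 4 tissues and 1430976_a_at was lower in liver, kidney and heart. Mrpl13 in heart was higher with 1460354_a_at (0.32) and lower with its brightest probe set (-0.26). Without the 14-month Q10 arrays 2 and 3 the heart total of 32 called became 21.

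Complex I genes followed the family in part, with 22 of 34 higher and 1 lower in brain, and 2 higher and 11 lower in kidney. Genes of cytosolic ribosomal proteins had 15 of 39 higher and 2 lower in kidney, where the family was mostly lower, and 14 higher and 8 lower in brain, 8 and 0 in liver, and 10 and 2 in heart. Their median deviation from the brain mean was -0.08 to 0.00 on the arrays of 6 months and 0.01 to 0.07 on those of 14 months. These ranges nearly touched, with a highest value of 0.002 at 6 months and a lowest of 0.009 at 14 months. Mitochondrial translation factors were lower in 7 of 14 cases in kidney and in 5 in liver, and assembly genes were higher in 9 of 23 cases in brain and lower in 8 in kidney. Of the regulator genes, 8 of 14 were higher in brain and 6 in heart.

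Markers of other cell types moved with duration as well. In brain all 4 glial markers (Aqp4, Gfap, Mbp and Mog) were higher at 14 months, with summed signals of 8150 to 10000 on the arrays of 6 months and 11000 to 13800 on those of 14 months, and summed neuronal markers went from 21900 to 25300 to 19700 to 21400. In kidney 7 of 11 macrophage markers were higher (sums 2100 to 2880, and 2380 to 15200) and so were all 4 B cell markers (39.4 to 107, and 95.9 to 2200), while summed tubule markers were 29600 to 32500 and 27700 to 34100. Their part in the results above was not tested. With the beta-actin ratio as a covariate, the brain counts fell from 67 to 45 higher and from 7 to 1 lower, all of them called without it as well.

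**Figure D4:**
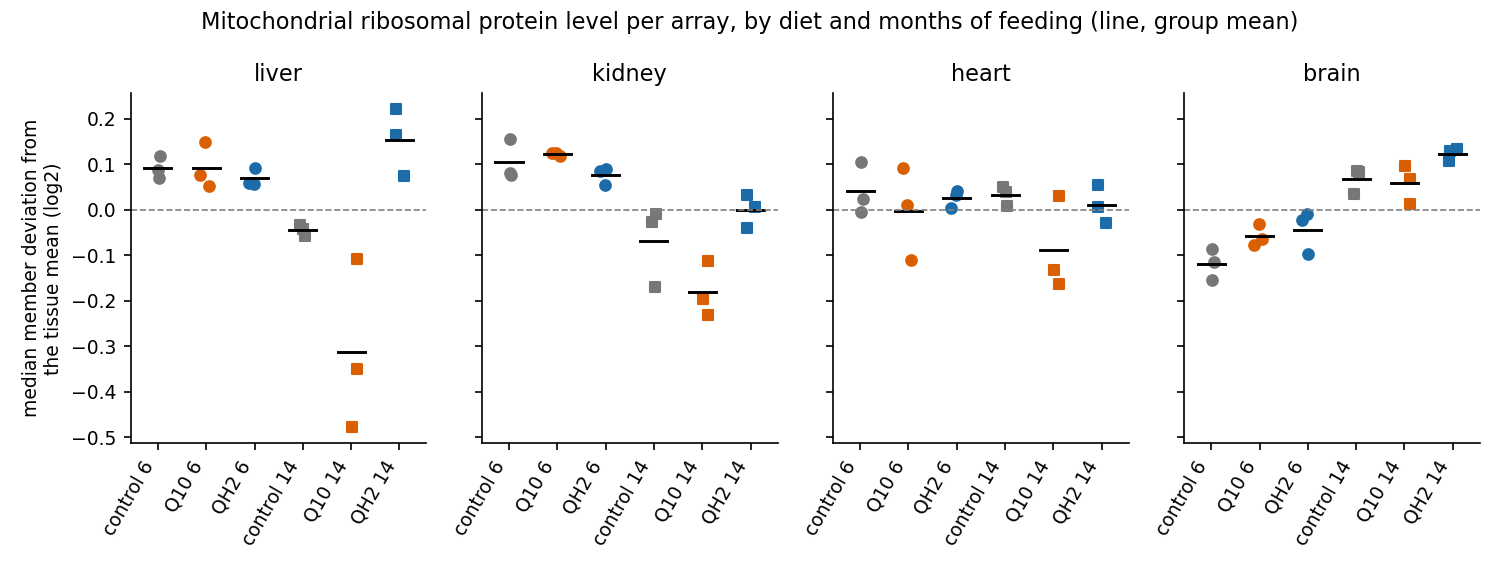
Median over the members of the log2 deviation of an array from its tissue mean, 1 point per array, by diet and months of feeding, with a line at the group mean of 3 arrays. Brain arrays of 14 months lie above those of 6 months and most kidney and liver arrays of 14 months below, the 3 liver Q10 arrays of 14 months span -0.48 to -0.11 and the QH2 arrays 0.07 to 0.22; on the deposited signals 25 kidney members were called higher and 1 lower at 14 months, and 6 liver members higher and 0 lower.

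The diets were compared at the same dose and time in each tissue. The only comparison with many calls was that of the 2 redox forms in liver after 14 months. There 35 of 140 members, from 29 genes, were higher on QH2 than on Q10 and none was lower (9.74% of all probe sets called, 4.81% higher). The median member differed by 0.43, against 0.08 for all probe sets, and 134 of 140 were above 0 (56% of all probe sets). For 73 members no QH2 array overlapped a Q10 array (14.8% of all probe sets). By brightest probe set 14 of 47 large and 11 of 29 small subunit genes were called.

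This result depended on single arrays of both the Q10 and the QH2 group and on the scale. On the deposited signals, with the beta-actin ratio as a covariate, with only the groups compared in the fit, or without Q10 arrays 2 and 3, 0 members were called. Leaving out a single array gave 62 calls without Q10 array 1, 8 without Q10 array 2, 12 without Q10 array 3, 14 without QH2 array 1, 25 without QH2 array 2 and 7 without QH2 array 3. The median deviation of the members from the liver mean was -0.11, -0.48 and -0.35 on Q10 arrays 1 to 3, -0.04, -0.06 and -0.03 on the control arrays, and 0.16, 0.07 and 0.22 on the QH2 arrays. The beta-actin ratios were 3.05, 1.59 and 1.98 on Q10, 3.49, 3.88 and 4.11 on control and 7.36, 3.67 and 5.01 on QH2, so the ratio was lowest on the 3 Q10 arrays. Relative to the median of all probe sets the members were 0.35 higher on QH2 after normalisation and 0.52 higher on the deposited signals.

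**Figure D5:**
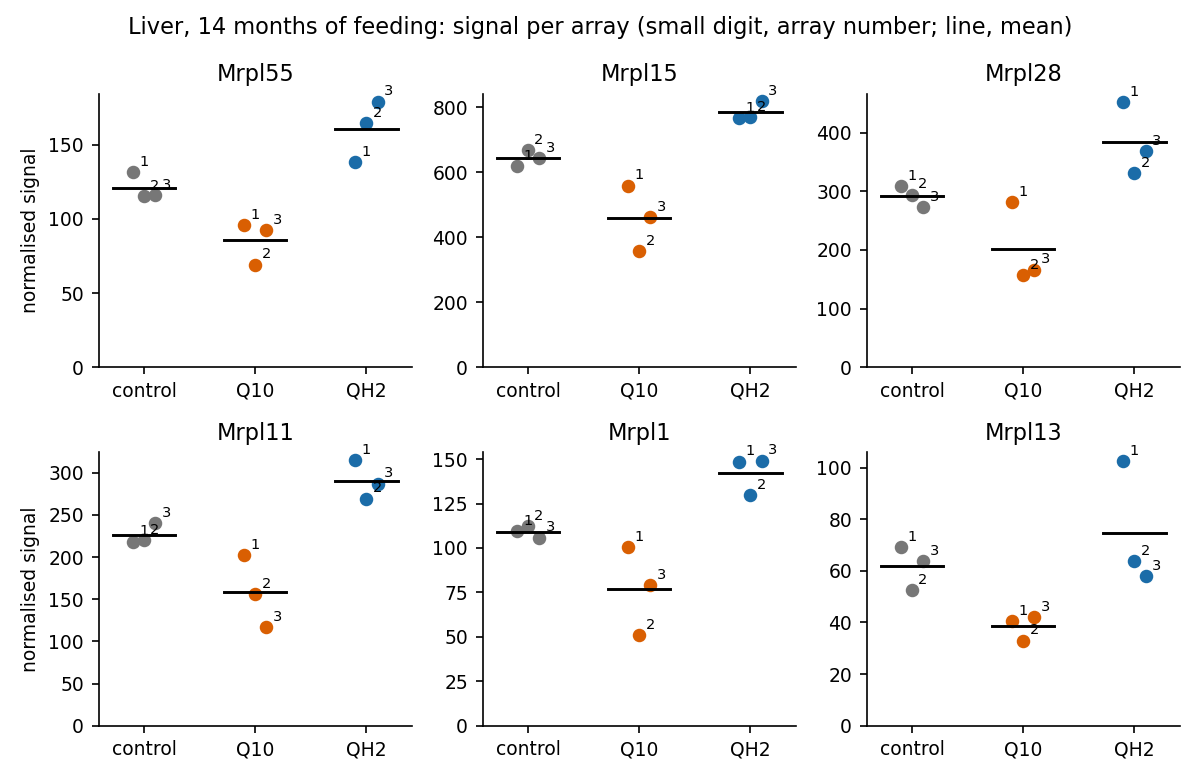
Normalised signal of 6 genes on the 9 liver arrays of 14 months, with the array number beside each point and a line at the group mean; axes start at 0 and differ between panels. The QH2 points lie above the Q10 points in every panel, and Q10 array 2 or 3 is the lowest; no member was called on the deposited signals.

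Mrpl55, a small protein specific to mitochondrial ribosomes, read 95.9, 69.1 and 92.5 on Q10 and 138, 164.6 and 179 on QH2, with controls of 131.7, 115.1 and 115.8. Control thus lay between the 2 forms, and the log2 difference of QH2 from Q10 was 0.90 ± 0.16 (limma adjusted p = 0.00258). Mrpl15, another large subunit protein with a bacterial counterpart, read 559.2, 356.5 and 462.2 on Q10 and 767.2, 769.7 and 819.9 on QH2 (0.80 ± 0.15, adjusted p = 0.00286); 4 of its probe sets were called and the others did not pass. Mrpl28 read 281.7, 157.3 and 166.1 on Q10 and 451.8, 331.4 and 368.3 on QH2 (0.96 ± 0.19, adjusted p = 0.00519). A second Mrpl28 probe set was called at 0.62 and the other differed by 0.06 (adjusted p = 0.92).

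Mrpl11, which lies at the factor-binding site, read 202.2, 156.3 and 117.3 on Q10 and 314.7, 269.2 and 287 on QH2 (0.90 ± 0.18, limma adjusted p = 0.00537), though its brightest probe set did not pass (0.55, adjusted p = 0.111). Mrpl1 of the L1 stalk read 100.6, 50.8 and 79 on Q10 and 148.6, 129.7 and 149.1 on QH2 (0.93 ± 0.20, adjusted p = 0.00845). Mrpl13 was dimmer in the probe set with the smallest p, 40.4, 33 and 42 against 102.6, 63.7 and 58.1 (0.90 ± 0.23, adjusted p = 0.0181), and was lost without Q10 array 2 or QH2 array 1. For all 6 genes the Q10 and QH2 arrays did not overlap. Mrpl12 was higher on QH2 (839.6, 656.6 and 733.5 against 1209.6, 995.5 and 1336.3, 0.66 ± 0.15, adjusted p = 0.0103), and so was Mrps12 (0.53, adjusted p = 0.026). For Mrps5 (0.49, 95% interval 0.08 to 0.91), Mrps36 (0.13, -0.28 to 0.53) and Mrpl3 (0.01, -0.35 to 0.37) the difference between the forms did not pass.

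In liver after 14 months 5 of 140 members (3.57%), from 4 genes, were lower on Q10 than on control and none was higher. Of all probe sets 6.21% were called (2.33% lower), a larger share than of the members. The median member was -0.27 against -0.10 for all probe sets and 122 of 140 lay below 0 (42.5% of all probe sets lay above 0), but on the deposited signals the member median was 0.15 and that of all probe sets 0.34. Mrps31 read 254.1, 271.2 and 263.7 on control and 228.8, 136.9 and 164.2 on Q10 (-0.60 ± 0.15, limma adjusted p = 0.0268). Mrps27, a pentatricopeptide repeat protein that binds RNA, read 70.6, 66.3 and 82.5 against 53.2, 29.4 and 51.2 (-0.74 ± 0.21, adjusted p = 0.0459). Mrpl22, which lines the exit tunnel, read 289.4, 310 and 360.9 against 271.2, 192.6 and 227.7 (-0.48 ± 0.14, adjusted p = 0.0492). Mrpl15 was called with 2 probe sets, the clearer of them dim (44.2, 52.9 and 46.5 against 30.4, 16.4 and 21.1, -1.09 ± 0.30, adjusted p = 0.0392). In each of these genes the control and Q10 arrays did not overlap, and arrays 2 and 3 read lower than array 1 on Q10. No member was called without any of the 5 arrays other than Q10 array 1, and 36 were called without that array.

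QH2 did not differ from control in liver after 14 months by the same test: 0 of 140 members were called (0% of all probe sets), with 14 at an unadjusted p under 0.05 (6.19%). The median member differed by 0.20, against 0.01 for all probe sets, and 116 of 140 lay above 0 (51.8%). The smallest p belonged to Mrps21, with a log2 difference of 0.46 ± 0.15 and a 95% interval of 0.14 to 0.78. Mrps16 (0.47), Mrpl12 (0.42) and Mrps17 (0.32) followed, with limma adjusted p between 0.633 and 0.718 over the 4. The median SE of a liver member was 0.19, the same as in the comparison of the forms.

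Summed markers of immune cells and of proliferation in liver reached their highest values on 14-month Q10 arrays. These sums spread widely among the 3 Q10 arrays, and for neutrophil markers the Q10 and control ranges overlapped. Summed over 11 macrophage markers the signal was 5490 to 18100 on the 14-month Q10 arrays, 870 to 2010 on control and 1210 to 2000 on QH2, and all 11 were called higher on Q10 than on control. The 4 B cell markers summed to 208 to 3060, 48.5 to 86.8 and 87.6 to 119, the 5 neutrophil markers to 288 to 14000, 79.8 to 619 and 67.3 to 219, and the 4 proliferation markers to 189 to 1820, 46.7 to 112 and 82.2 to 175, in the same order. Summed hepatocyte markers were 44800 to 53600 on Q10, 51000 to 53100 on control and 50200 to 52400 on QH2. Their part in the difference between the forms was not tested. Other gene lists gave 10 of 34 complex I genes, 7 of 24 assembly genes, 3 of 14 translation factors and 2 of 18 synthetases higher on QH2 than on Q10 in liver, and 0 cytosolic ribosomal protein genes higher and 2 lower.

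Kidney after 14 months held a smaller set. On QH2, 8 of 138 members (5.8%) were higher than on Q10 and none was lower. Of all probe sets 6.04% were called (3.98% higher), so the share of members called was near that of all. The median member was 0.16 against 0.04 for all probe sets, and 115 of 138 lay above 0 (54.8%). Mrpl12 read 1092.1, 1144.7 and 1207.2 on Q10 and 1764.2, 1494.8 and 1477.9 on QH2 (0.46 ± 0.08, limma adjusted p = 0.00541). Mrpl50 read 199.3, 166.1 and 244.3 on Q10 and 364.7, 278.4 and 315.1 on QH2 (0.66 ± 0.14, adjusted p = 0.0117), and its second probe set differed by 0.27 and did not pass. These were also the 2 members called lower on Q10 than on control (0.67% of all probe sets called, 0.563% lower): Mrpl12 read 1393.3, 1643 and 1558.6 on control (-0.41 ± 0.08, adjusted p = 0.028) and Mrpl50 342.1, 337.8 and 345.4 (-0.77 ± 0.14, adjusted p = 0.0156). In both genes the Q10 arrays lay below all control and all QH2 arrays.

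The other kidney genes higher on QH2 than on Q10 were weaker. Mrps18b read 192.1, 189.2 and 181.7 on Q10 and 270.4, 231.1 and 293.2 on QH2 (0.49 ± 0.11, limma adjusted p = 0.0133), and its paralogue Mrps18a, located in the large subunit in structures, read 302.9, 302.9 and 336.4 and then 555.6, 342.6 and 425.6 (0.46 ± 0.13, adjusted p = 0.0417). Mrps2 was called with its dim probe set (0.55 ± 0.15) and not with its bright one (0.21, adjusted p = 0.155). Mrpl48 (0.41 ± 0.11, adjusted p = 0.0438) was no longer called in any of the 6 fits without 1 array. Mrps12 (0.34, 95% interval 0.09 to 0.59) did not pass. The count of 8 ranged from 2 to 13 with 1 array left out, being 7, 2 and 3 without Q10 arrays 1, 2 and 3 and 2, 13 and 2 without QH2 arrays 1, 2 and 3, and no member was called on the deposited signals or with only the groups compared in the fit. The count of 2 against control was 0 without control array 2 or Q10 array 2, 0 on the deposited signals, and 1 without control array 1 or 3 or Q10 array 3. Summed macrophage markers were 3350 to 15200 on Q10, 2460 to 6100 on control and 2380 to 3080 on QH2, and their part was not tested. QH2 did not differ from control in kidney (0 of 138 called, 0% of all probe sets, 5 at an unadjusted p under 0.05 against 5.84%, median member 0.04).

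In heart and brain no member was called in any comparison of diets. In heart after 14 months 0 of 139 were called for Q10 against control (0% of all probe sets), with 19 at an unadjusted p under 0.05 (9.69%). The median member was -0.14, against -0.02 for all probe sets, and 118 lay below 0 (46.7% of all probe sets lay above 0), but on the deposited signals the member median was 0.28 and that of all probe sets 0.40. Mrpl48 had the smallest p there (-0.37 ± 0.11, 95% interval -0.60 to -0.15, limma adjusted p = 0.202). Summed marker signals on the heart Q10 arrays and on control were 4140 to 6120 and 3350 to 4260 for 11 macrophage markers, 101 to 1740 and 56.3 to 69.3 for B cells, 65.4 to 920 and 50.6 to 91.2 for neutrophils, 121 to 433 and 89 to 136 for proliferation, and 62400 to 64000 and 61200 to 63000 for cardiomyocytes. None of these markers was called, and their part was not tested. The median deviation of the members was 0.03 on Q10 array 1 and -0.13 and -0.16 on arrays 2 and 3, against 0.01 to 0.05 on control. For QH2 against Q10 in heart no member was called (0%), the median was 0.09, 110 members were above 0 (52.6% of all probe sets) and 15 had an unadjusted p under 0.05 (11.1%), and 8 were called once QH2 array 1 was left out. QH2 against control in heart gave 0 calls (0%), with 8 at an unadjusted p under 0.05 (4.71%) and 2 called without QH2 array 1. In brain the redox forms differed by a median of 0.05 after 14 months, with 0 called (0%) and 8 members at an unadjusted p under 0.05 (4.74%). The smallest p there was that of Mrpl13 (0.27 ± 0.09, 95% interval 0.09 to 0.44, limma adjusted p = 0.801), and the intervals of Mrpl12 (-0.07 to 0.30), Mrps12 (-0.09 to 0.21) and Mrps36 (-0.11 to 0.24) included 0. Against control, Q10 gave 0 calls in brain (0% of all probe sets), with 7 at an unadjusted p under 0.05 (5.28%), and QH2 gave 0 (0.0111%), with 5 (4.99%).

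After 6 months few members were called between diets. Of the 12 comparisons of diets at that time, 1 called a member: Mrpl15 with its dim probe set 1439988_at was lower on QH2 than on Q10 in liver (31.4, 29.4 and 40.4 on Q10, and 8.1, 14.3 and 11.3 on QH2, -1.52 ± 0.30, limma adjusted p = 0.0181), where 0.988% of all probe sets were called (0.859% lower), and it was not called on the deposited signals, with only the groups compared in the fit, or without any of these 6 arrays other than QH2 array 2. Median member differences between QH2 and Q10 were -0.02 in both liver and kidney, 0.03 for heart and 0.02 for brain. Against control the member medians ran from -0.06 for Q10 in heart to 0.07 for QH2 in brain. In brain 98 of 136 members were above 0 on QH2 (50.1% of all probe sets) and 90 on Q10 (50%, median 0.05), and none of these members was called; on the deposited signals both brain medians were negative (-0.17 and -0.27) but still 0.07 and 0.04 above those of all probe sets. No member passed in the other 11, where from 0% to 0.81% of all probe sets were called (0.81% for Q10 and 0% for QH2 against control in liver, 0% and 0.192% in kidney, and 0.292% in kidney and 0.0666% in heart for QH2 against Q10). At an unadjusted p under 0.05, Q10 differed from control for 8 members in brain (6.11% of all probe sets), 6 in heart (5.72%), 5 in liver (9.26%) and 4 in kidney (4.11%). QH2 differed from control at that level for 20 in brain (8.56%), 10 in kidney (9.82%), 3 in heart (7.55%) and 3 in liver (7.07%), and from Q10 for 13 in brain (7.66%), 9 in kidney (10.1%), 9 in liver (10.6%) and 8 in heart (6.99%).

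Whether a diet effect differed between the durations was tested with an interaction term. In liver the Q10 effect differed for 1 of 140 members (2.33% of all probe sets called), again Mrpl15 with 1439988_at (-1.99 ± 0.43, limma adjusted p = 0.0192), and its other probe sets did not pass. The count was 0 without Q10 array 3 of 6 months, control array 2 or Q10 array 2 of 14 months, 2 without Q10 array 1 of 6 months and 18 without Q10 array 1 of 14 months. In the other 7 interaction comparisons no member was called by limma (0% of all probe sets, but 0.0074% for Q10 in kidney and 0.0296% for QH2 in brain). At an unadjusted p under 0.05 the Q10 interaction had 16 members in kidney (7.1%), 5 in heart (6.8%) and 8 in brain (4.96%), and the QH2 interaction 13 in kidney (8.8%), 11 in brain (6.32%), 7 in liver (6%) and 6 in heart (7.26%). The difference of the liver redox comparison between 14 and 6 months was not itself tested.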

How the data were processed

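Total RNA was labelled as biotinylated cRNA and hybridised to Affymetrix mouse arrays, 1 array per sample. The authors deposited an intensity for each probe set on each array, on a linear scale, made with GCOS per the submitters' processing notes. GCOS version and settings, and any genome build, were not given in the sources used here. Probe sets were named from the platform annotation (34945 with 1 symbol, 932 with several, 9160 with none); 4 probe sets with a member symbol among several were left out. The 64 control probe sets were removed, the 18 arrays of a tissue (all 72 for comparisons between tissues) were quantile normalised, an offset of 1 was added before log2, and probe sets above the 40th percentile of mean signal were kept. Groups were compared with limma 3.58.1 in R 4.3.3 (lmFit, eBayes with trend; 6 group means per tissue, 24 over all arrays), with Benjamini-Hochberg adjustment over all 27022 probe sets tested, in 36 comparisons within tissues and 4 between them. The 3 tests of duration between tissues were added after the values were seen. The scripts were tested on simulated data. An exact permutation test of 3 against 3 arrays cannot go below 0.1, so none is given.

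Members and gene lists were chosen with earlier results of these data known. Genes named by their change were, per comparison, the largest changes among called members whose groups did not overlap (up to 6 each way, by the probe set with the smallest p), the 4 smallest p where under 4 were called, and per tissue up to 5 each way; Mrps5, Mrps12, Mrpl12, Mrpl3 and Mrps36 were followed throughout by their brightest probe set. Some genes stand outside this rule (Mrps16, Mrps33 and Mrps15 among them) and were chosen after their values were seen. Depth has no counterpart on arrays, and 3 arrays per group limit the precision. The design text has 3 mice per group, so p-values measure the spread between mice kept in shared cages. Replicate numbers did not pair samples within a tissue (median correlation of same-numbered deviations 0.003). Across tissues of 1 diet and duration, 6 of 108 same-numbered pairs correlated above 0.1 (highest 0.258), against 2 of 216 other pairs, so whether tissues share mice cannot be told from the data or labels. Alternatives changed the scaling, offset, filter, variance trend, block, covariate, groups fitted and arrays included.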

Additional observations from a re-analysis of the deposited data

Results flagged for a closer look

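The change of the family with duration differed between brain and each other tissue by a direct test of the difference. It was higher in brain than in kidney for 84 member probe sets, than in liver for 77 and than in heart for 42 of 135 (limma, adjusted p under 0.05); on the deposited signals these became 35, 67 and 1.

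The effect of Q10 in liver differed between 14 and 6 months for probe set 1439988_at of Mrpl15, by -1.99 on the log2 scale. This probe set is dim, and 1435232_x_at, the brightest of the gene, was not called in that test. Groups of 3 arrays were too small to test single arrays as outliers.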

How the results depend on the processing

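Counts of called members were recomputed under each alternative. Apart from fits with 1 array left out, 297 counts stayed within 1.5 times the main count and 37 did not. The 297 include counts of 0 that stayed 0, and most comparisons of diets had a main count of 0. On the deposited signals the counts became 0 for QH2 against Q10 in liver at 6 months, and in liver and kidney at 14 months 0 for Q10 against control and for QH2 against Q10; 0 for the liver Q10 interaction; 6, 26, 122 and 121 for duration in liver, kidney, heart and brain; and 39 and 2 for duration in brain minus kidney and minus heart. Signs turned there for Mrpl48 (0.20) and Mrps30 (0.52) in heart with duration and for Mrpl38 1447961_s_at in liver against the other tissues (-0.39). Trimmed mean scaling gave 2 for liver Q10 against control at 14 months. Without a filter that count was 1 and the kidney comparison of QH2 with Q10 gave 3; without the variance trend liver gave 1 and 17 and kidney 0 and 4 for Q10 against control and QH2 against Q10. With the beta-actin ratio as a covariate liver gave 0, 0 and, for the interaction, 0, kidney QH2 against Q10 gave 13 and brain duration 46. With only the groups compared, all of these liver and kidney counts, and that of liver at 6 months, were 0. Without the 14-month Q10 arrays 2 and 3, an alternative chosen after seeing the data, liver gave 0 in all 3, kidney 0 and 2, and heart duration 21. The cause was not tested in any of these.

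With the replicate number as a block, kidney gave 1 for Q10 against control and 3 for QH2 against Q10; the numbers share only a name, as 1 of 180 same-numbered pairs within tissues correlated above 0.1. With each array left out in turn, counts at 14 months ran from 0 to 36 for Q10 against control in liver and 0 to 2 in kidney; from 7 to 62 in liver, 2 to 13 in kidney and 0 to 8 in heart for QH2 against Q10; and from 0 to 2 for QH2 against control in heart. They ran from 0 to 18 for the liver Q10, 0 to 1 for the kidney Q10 and 0 to 1 for the heart QH2 interaction, and from 0 to 1 for QH2 against Q10 at 6 months in liver and in kidney. Leaving out a replicate number gave 55 to 72 for duration in brain minus kidney and 19 to 34 in brain minus heart. Of the values for named genes under other settings, 1336 kept their side of the threshold, 102 lost and 1 gained a call, and 3 turned. The 1336 include genes named by a small p that were not called in the main fit. A change of sign without a call in either fit was counted as kept. Dim members have less precise values.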
